A study of Mus musculus with 4 samples.

Results

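Kruppel-like factors are transcription factors that share 3 zinc fingers at the carboxyl end of the protein, with which they bind GC-rich and CACCC elements in promoters and enhancers. The regions outside the fingers differ and recruit different partners: one class binds acetyltransferases and mostly activates (Klf2, Klf4, Klf6, Klf7), another binds the corepressor CtBP (Klf3), and the third binds the SIN3 corepressor complex (Klf9, Klf10, Klf11, Klf13, Klf16). In T cells the family is best known through Klf2, which keeps resting cells quiescent and recirculating and falls after antigen receptor stimulation, and through Klf10, which is induced by TGF-beta and has been linked to Foxp3.

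Transcripts of 10 such genes were measured in 4 RNA-seq libraries of mouse regulatory T cells, the CD4+ cells that restrain immune responses. The 10 genes were taken by symbol (Klf2, Klf3, Klf4, Klf6, Klf7, Klf9, Klf10, Klf11, Klf13 and Klf16) from 50600 annotated genes, and each symbol matched exactly 1 gene identifier. All 4 libraries belong to 1 group of primary cells of strain C57BL/6NJ, numbered as biological replicates 1 to 4. The labels point to a protocol for CD4+ T cell differentiation, the names of the authors' output carry the words activated and 24h, age and sex are not recorded, and no treated or control arm exists. Levels could therefore be compared between genes within a library, and between libraries only as spread. The 4 libraries carry 1 donor identifier, and which of them come from separate animals or cultures is not stated, so a p-value here speaks of how these libraries vary, in part perhaps technically, and not of animals.

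The libraries held 38590127, 44357436, 48312918 and 93035969 fragments assigned to genes in replicates 1 to 4. Replicate 1 stood apart in its noncoding RNA: Gm42418, an rRNA-related feature, took 2.04% of its fragments against 0.0704 to 0.175% in the others, and protein-coding genes held 88.2% of its TPM (counts scaled for gene length and then to a common total in every library) against 95.6 to 96.6%. Replicates 1 and 2 differed from the other two in Xist, the RNA of the inactive X chromosome, at 100.4 and 88.7 TPM, whereas replicate 3 held 0.716 TPM and replicate 4 held 0.603. The Y-linked gene Ddx3y went the other way, with 0.159 and 0.101 TPM against 46.1 and 40.6, so despite the shared donor identifier the 4 libraries do not all hold RNA of 1 animal, and their spread includes this split. The cells carried T cell and regulatory T cell markers: all 9 listed genes reached 1 TPM, with a summed level of 4060 to 4746 TPM, and Foxp3 had 109 ± 14.5 TPM (SD, n = 4). The 9 genes were uneven: Trac was the highest at 1436 ± 156 TPM and Ikzf2 the lowest at 4.32 ± 0.788 TPM. Cells other than T cells also use Klf2 and Klf4, so markers of those cells were read too. Of 3 endothelial genes Pecam1 had 4.93 ± 0.366 TPM, Cdh5 had fragments in replicate 3 alone and Kdr had none. Of 5 macrophage, monocyte and neutrophil genes Adgre1 reached 1 TPM, Lyz2 and S100a8 had 0 fragments, and the summed level was 1.15 to 1.89 TPM. B cell, dendritic, NK, erythroid, and stromal and epithelial lists summed to 0.851 to 2.41, 0.112 to 0.145, 0 to 0.102, 0.264 to 0.636 and 1.45 to 3.22 TPM, and the CD8 genes to 17.41 to 26.04 TPM. Most of the CD8 sum was Cd8b1, at 15.8 to 25.3 TPM, whereas Cd8a had 0.688 to 1.57 TPM. These are bulk libraries, in which fewer cells with a transcript and less of it per cell cannot be told apart.

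The zinc fingers show which members are most alike, and the levels of the closest pairs are set side by side further on. Shown are the coding sequences of the third finger for Klf16, the most abundant member, and for the 3 pairs with the most alike fingers, each read 5′ to 3′ on the coding strand from GENCODE mouse release 21 transcripts (mm10), with the codons of the 2 cysteines and 2 histidines that hold the zinc ion in capitals. Each sequence has 63 bases.
Klf6: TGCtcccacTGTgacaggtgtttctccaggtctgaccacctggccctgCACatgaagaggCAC
Klf7: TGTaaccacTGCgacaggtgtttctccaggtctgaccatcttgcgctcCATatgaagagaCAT
Klf2: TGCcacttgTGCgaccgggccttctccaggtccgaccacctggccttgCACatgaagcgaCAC
Klf4: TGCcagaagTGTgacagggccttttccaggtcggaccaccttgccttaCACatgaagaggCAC
Klf10: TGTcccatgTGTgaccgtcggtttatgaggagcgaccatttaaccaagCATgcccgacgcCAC
Klf11: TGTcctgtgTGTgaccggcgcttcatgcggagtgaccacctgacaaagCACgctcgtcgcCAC
Klf16: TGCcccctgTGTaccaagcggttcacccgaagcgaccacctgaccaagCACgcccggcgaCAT

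The third finger lies at chr13:5866746-5867277 (plus strand) in Klf6, where exons 3 and 4 both code for it, and likewise at chr1:64035719-64042330 (minus strand) in Klf7. It lies within the last exon of the others shown: exon 3 of Klf2 at chr8:72320851-72320913 (plus), exon 5 of Klf4 at chr4:55528131-55528193 (minus), exon 4 of Klf10 at chr15:38295995-38296057 (minus), exon 4 of Klf11 at chr12:24660290-24660352 (plus) and exon 2 of Klf16 at chr10:80569053-80569115 (minus). Every one of the 10 proteins translated from these transcripts held exactly 3 fingers, over 81 residues. Over the 45 pairs of members the identity of those residues was 60.5 to 95.1%, with 71.6 to 95.1% (median 78.4%) in the 16 pairs within a class and 60.5 to 81.5% (median 65.4%) in the 29 pairs between classes. The ranges overlap: Klf3 was equally close to Klf4, Klf6 and Klf7, at 81.5% each, above the 77.8% of Klf6 and Klf2, which share a class. The mutually closest pairs were Klf6 and Klf7 (95.1% of residues, 81.1% of bases), Klf2 and Klf4 (91.4 and 78.2%), Klf10 and Klf11 (86.4 and 76.1%), and Klf13 and Klf9 (81.5 and 72.8%). The place of the fingers also followed class: 1 residue came after the last finger in Klf2, Klf4, Klf6 and Klf7, and 3 did in Klf3, against 19 in Klf9, 29 in Klf10, 36 in Klf11, 39 in Klf13 and 43 in Klf16. A CtBP-binding motif was found in Klf3 alone, starting at residue 61, by a search of the 10 proteins. Alike as the proteins are, the longest run of identical bases shared by the transcripts used for any of the 45 pairs was 26 bases, in Klf6 and Klf7.

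Of the 10 members, 9 had a mean of at least 1 TPM and 5 of at least 10 TPM, and together they held 378 ± 8.52 TPM (SD, n = 4). Klf9 and Klf7 lay just under 10 TPM, and 7 members reached it with protein-coding genes alone in the total and 6 with the longest annotated transcript as the length, where Klf3 did. The 5 abundant members, Klf16, Klf6, Klf13, Klf10 and Klf2, held 91.6 ± 0.238% of that sum, between 91.2 and 91.8% in every library. The 7 further Klf genes measured added almost nothing, since the 10 members made up 99.7 ± 0.109% of the summed TPM of all 17. By class, over all 17 Klf genes, SIN3-binding genes dominated: they held 62.3 ± 1.39% of Klf TPM, acetyltransferase-binding genes 35.4 ± 1.41% and CtBP-binding genes 2.33 ± 0.0825%. With the longest annotated transcript as the length, the CtBP-binding share was 4.59 ± 0.148%, since the exons of Klf3 cover 11243 bp and its longest transcript 5221 bp, while the other classes held 61.6 and 33.9%. The ratio of the first class to the second was 1.75, 1.63, 1.77 and 1.90 in replicates 1 to 4, so that the order of the classes was the same in every library.

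**Figure D1:**
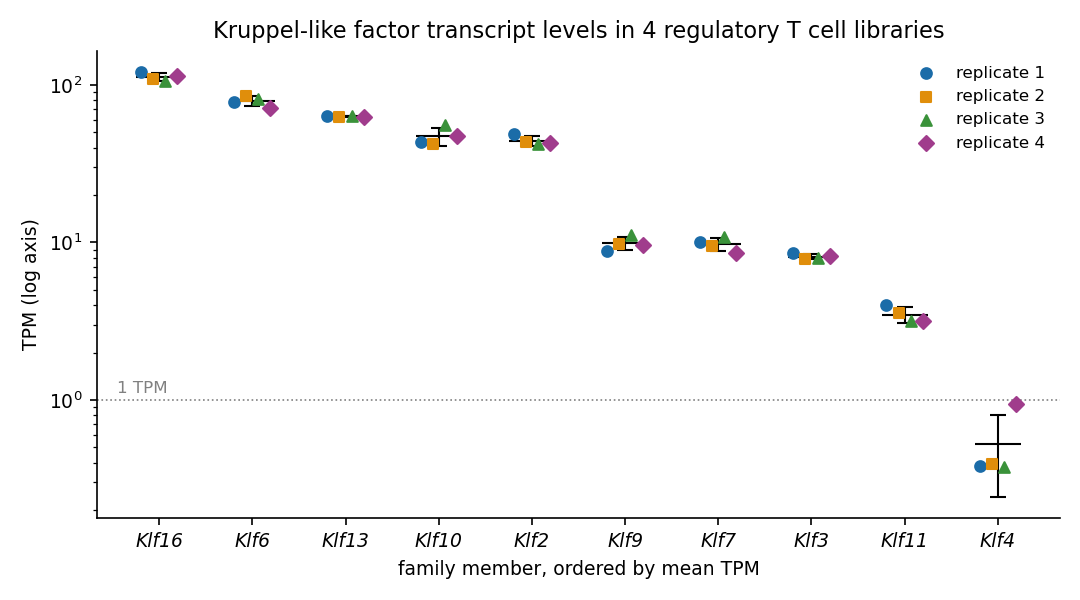
Level of each member in TPM (log axis) in replicates 1 to 4, with members ordered by mean TPM, a horizontal bar for the mean and a whisker for 1 SD (n = 4). Klf16 to Klf2 lie between 42.0 and 121 TPM, Klf9 to Klf11 between 3.18 and 11.2 TPM, and Klf4 below 1 TPM in all 4 libraries.

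Klf16, a SIN3-binding repressor of the SP1-like kind, had the highest mean level per length. It had 121, 109, 107 and 113 TPM in replicates 1 to 4, a mean of 112 ± 6.33 (SD, n = 4), which ranks above 82.5% of the 10383 protein-coding genes with a mean of at least 1 TPM. Replicate 1 was its highest library and replicate 3 its lowest, 1.13-fold apart. The gene (ENSMUSG00000035397.8) spans chr10:80567124-80577321 on the minus strand and has 1 annotated transcript.

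Klf13, which is known to switch on the chemokine gene Ccl5 late in T cell activation, was the steadiest member. Its TPM was 63.3, 62.8, 64.0 and 62.5 in replicates 1 to 4, a mean of 63.1 ± 0.644 and a coefficient of variation (SD over mean) of 1.02%. It had the most fragments of any member, 5762 to 12971 per library, from exons of 7531 bp in total at chr7:63886351-63938915 (minus strand). Ccl5 itself had fragments in replicate 3 alone, at 0.223 TPM.

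Klf10, the TGF-beta-inducible member (chr15:38294413-38300707, minus strand), had 43.5, 42.0, 55.5 and 47.4 TPM (47.1 ± 6.02), with replicate 3 highest and both of the later-numbered libraries above both of the others. Its coefficient of variation of TPM, 12.8%, was the largest among members over 1 TPM. Klf11, the related TGF-beta-inducible gene (chr12:24651371-24662774, plus strand), was far lower at 4.03, 3.56, 3.18 and 3.17 TPM (3.49 ± 0.404), and was lower in replicates 3 and 4. Klf10 thus exceeded Klf11 in every library, by 10.8-fold to 17.4-fold. In TPM, Klf10 was higher and Klf11 lower in replicates 3 and 4, the libraries with low Xist and high Ddx3y. For Klf10 that division rested largely on replicate 3. In CPM, fragments scaled to the library total alone, Klf10 had 41.5, 38.3, 49.1 and 42.8. The exact Poisson 95% intervals of replicates 1 and 4 overlapped, at 39.53 to 43.62 and 41.45 to 44.12. For Klf11 the intervals of replicates 2 and 4 overlapped too. The SD of log2(CPM + 0.1) was 0.149 for Klf10, below the 0.203 of Klf11 and the 0.151 of Klf7, so the rank of Klf10 in spread held for TPM only. Protein-coding genes also held less of the TPM in replicate 1 (88.2%) than in replicate 4 (96.6%), which lowers TPM there. The part of the Xist and Ddx3y split in these values was not tested.

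Klf9, a gene induced by glucocorticoid and thyroid hormones (chr19:23141226-23166911, plus strand), had 8.85, 9.81, 11.2 and 9.68 TPM (9.89 ± 0.987). It is the member whose fingers are closest to those of Klf13, which exceeded it by 5.70-fold to 7.15-fold per library.

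Of the acetyltransferase-binding class, Klf6, a broadly expressed early response gene, was the highest at 77.8, 85.1, 81.7 and 71.8 TPM (79.1 ± 5.71). Replicate 2 was the highest library and replicate 4 the lowest, 1.19-fold apart. Klf7, its closest relative, had 10.1, 9.51, 10.9 and 8.57 TPM (9.77 ± 0.986), also lowest in replicate 4. Klf6 exceeded Klf7 by 7.49-fold to 8.95-fold. The genes lie at chr13:5861489-5870393 (plus strand) and chr1:64029447-64122282 (minus strand).

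Klf2, the quiescence and homing factor (chr8:72319033-72321656, plus strand), had 48.9, 43.5, 42.3 and 42.7 TPM (44.4 ± 3.10), highest in replicate 1 by 1.16-fold over the lowest library. That mean lies above 60.6% of expressed protein-coding genes. In CPM Klf2 had 28.32, 24.05, 22.69 and 23.36. The exact Poisson 95% interval of replicate 1 was 26.67 to 30.05, and those of the others reached at most 25.54. Klf4, which arrests the cell cycle in T cells and is a reprogramming factor elsewhere (chr4:55527143-55532466, minus strand), was the only member under 1 TPM on average. It had 14, 16, 16 and 79 fragments in replicates 1 to 4 and 0.380, 0.395, 0.374 and 0.940 TPM (0.522 ± 0.279). In CPM, fragments scaled to the library total alone, replicate 4 had 0.849 with an exact Poisson 95% interval of 0.672 to 1.06, against 0.331 to 0.363 in the others, whose intervals reached at most 0.609. These intervals cover counting error only. In replicate 4 the summed endothelial markers (4.54 TPM) and the summed macrophage, monocyte and neutrophil markers (1.15 TPM) were the lowest of the 4 libraries, as were the erythroid genes (0.264 TPM). Stromal and epithelial markers (2.32 TPM), NK markers (0.0858 TPM) and the sum of the CD8 genes (24.8 TPM) were second highest there. The CD8 genes went opposite ways: Cd8b1 (24.1 TPM) was second highest in replicate 4 and Cd8a (0.688 TPM) was lowest. B cell markers (1.26 TPM) and dendritic markers (0.122 TPM) were lower there than in both replicates 1 and 2 and above replicate 3. The part of other cells in the Klf4 values was not tested. Klf2 exceeded Klf4 by 110-fold to 129-fold in replicates 1 to 3 and by 45.4-fold in replicate 4.

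Klf3, the CtBP-binding repressor (chr5:64803388-64832901, plus strand), had 8.55, 7.90, 7.94 and 8.18 TPM (8.14 ± 0.298), with a coefficient of variation of 3.66%. In CPM Klf3 had 30.1, 26.6, 25.9 and 27.2 (27.5 ± 1.84). Its relatives Klf8 and Klf12 were at 0.645 ± 0.225 and 0.0363 ± 0.0350 TPM, so Klf3 carried nearly all transcripts of that class.

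**Figure D2:**
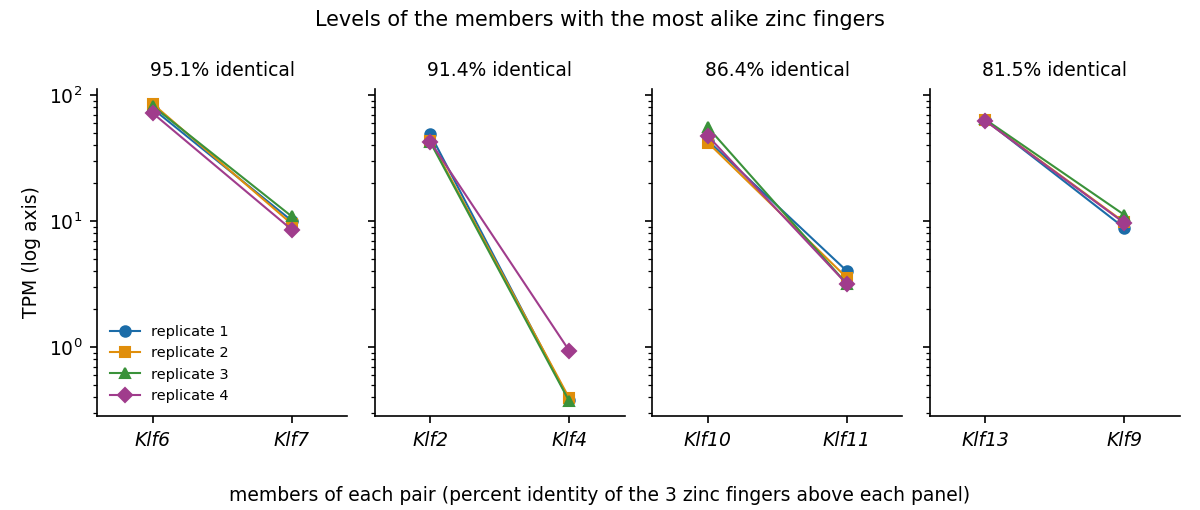
TPM (log axis) of the 4 mutually closest pairs of members, 1 panel a pair, with 1 line for each of replicates 1 to 4 and the identity of the 3 zinc fingers above each panel. In every pair and library the member on the left is higher, by at least 5.70-fold.

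In each of the 4 pairs with the closest fingers, 1 member held most of the transcripts. The mean within-library ratio of TPM was 8.13 ± 0.661 (SD, n = 4) for Klf6 over Klf7, 6.43 ± 0.593 for Klf13 over Klf9, 13.7 ± 3.02 for Klf10 over Klf11 and 99.4 ± 36.9 for Klf2 over Klf4. On the log2 scale these were 3.02 ± 0.12, 2.68 ± 0.13, 3.75 ± 0.32 and 6.53 ± 0.69, each well over its spread. No test was run on these ratios, since 4 libraries are too few for an exact permutation test to reach 0.05. The size depends on the length used: with the longest annotated transcript in place of all exons, the Klf13 to Klf9 ratio was 10.4, while those of Klf6 to Klf7, Klf10 to Klf11 and Klf2 to Klf4 were 7.65, 13.3 and 98.7. In CPM, which is not divided by length and so favours longer genes, the ratios were 4.22 for Klf6 to Klf7, 14.8 for Klf13 to Klf9, 9.89 for Klf10 to Klf11 and 60.2 for Klf2 to Klf4.

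The order of the levels per length was settled for most neighbours and not for all. A pair of neighbours in the order was said to differ beyond the spread where the log2 ratio of their TPM had the same sign in 4 of 4 libraries and a mean over 2 SD, which 6 of the 9 pairs met. Klf16 exceeded Klf6 by 0.51 ± 0.16 on the log2 TPM scale, Klf6 exceeded Klf13 by 0.32 ± 0.10 and Klf13 exceeded Klf10 by 0.43 ± 0.17. Klf10 and Klf2 did not differ beyond the spread, with 0.08 ± 0.25 and Klf10 higher in 2 of 4 libraries. The widest step among members over 1 TPM followed, 2.17 ± 0.23 from Klf2 down to Klf9. Klf9 and Klf7 (0.02 ± 0.15, Klf9 higher in 3 of 4) and Klf7 and Klf3 (0.26 ± 0.16, Klf7 higher in 4 of 4) did not differ beyond the spread. Klf3 exceeded Klf11 by 1.23 ± 0.13 and Klf11 exceeded Klf4 by 2.86 ± 0.75. With the longest annotated transcript as the length, Klf3 was 1.71 times its level and Klf9 0.577 times, so that the order of these became Klf3, Klf7, Klf9, and Klf6 and Klf13 no longer differed beyond the spread.

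No member was called more variable between libraries than other genes of like abundance. By the dispersion of edgeR's quasi-likelihood fit with Benjamini-Hochberg adjustment, 0 of the 10 members passed 0.05, where 58 of the 12396 genes tested did (0.468%). In this fit no member had an unadjusted p under 0.05, where 661 of the 12396 genes tested did, so 0 in 10 is little below that share. DESeq2 marked 0 members among its 69 dispersion outliers. The lowest adjusted p by edgeR was 0.940, for Klf16, and the adjusted p of Klf10 was 0.974 and that of Klf4 0.985. At the low counts of Klf4 genes of like abundance have an estimated biological coefficient of variation of 27.1%, and that of Klf4 was 29.4%. The estimate for Klf4 is shrunk toward that of those genes, so the 2 values lie close in part by construction. The coefficient of variation of Klf4 TPM itself was 53.4%. A share of 0 in 10 genes is close to the background of 0.468% and says nothing particular about the family. Among the 10 members the coefficient of variation of TPM had a median of 8.60%, against 9.07% over all genes tested, and 5 members lay below the latter. By TPM, replicate 1 was the highest library for 4 members (Klf16, Klf2, Klf3 and Klf11), replicate 3 for 4 (Klf13, Klf10, Klf9 and Klf7), replicate 2 for Klf6 and replicate 4 for Klf4. By CPM, replicate 1 was the highest for Klf13 as well.

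**Figure D3:**
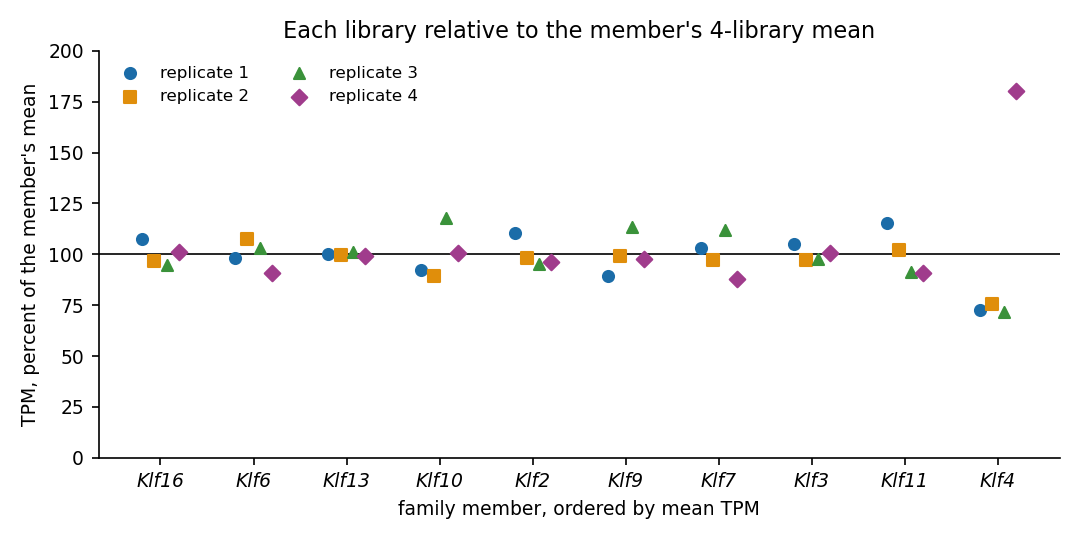
TPM of each member in replicates 1 to 4 as a percentage of that member's mean over the 4 libraries, with members ordered by mean TPM. Klf13 spans the narrowest range, with a coefficient of variation of TPM of 1.02%, and Klf4 in replicate 4 lies farthest from its mean, at 0.940 TPM against 0.522.

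**Figure D4:**
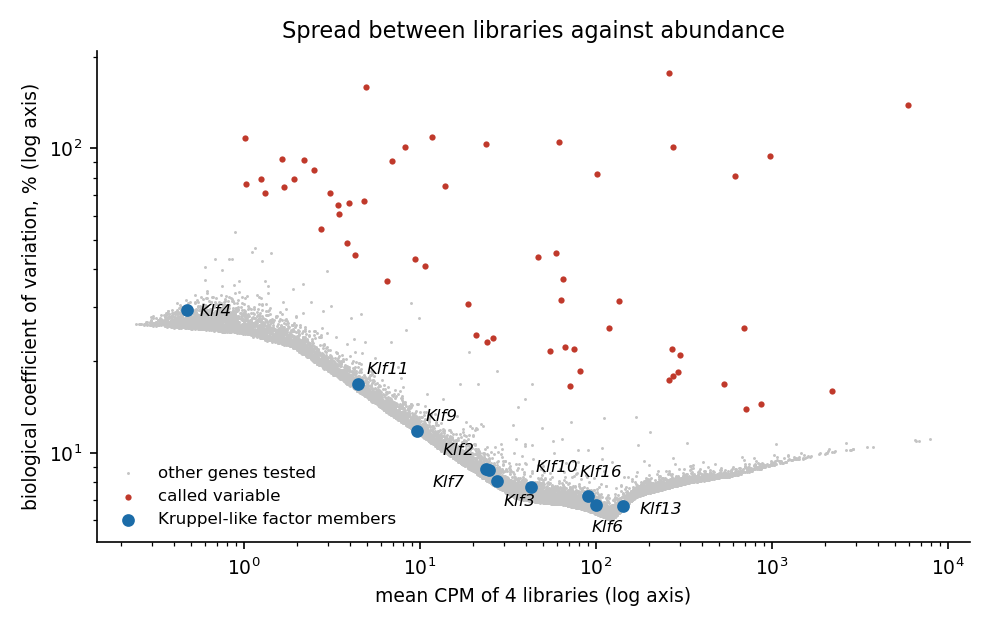
Biological coefficient of variation between libraries as edgeR estimates it, shrunk toward genes of like abundance (percent, log axis), against mean CPM over 4 libraries (log axis), for 12396 genes. The 10 members (blue) lie in the band of other genes (grey), and the 58 genes called variable (red) lie above it.

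Relatives outside the 10 members ranged from abundant to undetected. Of 16 further KLF and SP genes, 5 had a mean of at least 1 TPM, and all were SP genes, which bind the same GC-rich elements: Sp3 had 103 ± 13.2 TPM (SD, n = 4), Sp1 87.9 ± 4.81, Sp2 54.3 ± 2.33, Sp4 11.0 ± 1.89 and Sp6 1.95 ± 0.666. Sp1 to Sp4 together had 257 ± 19.2 TPM against 378 for the 10 Klf members. Klf8, Sp7, Klf1, Klf5 and Klf12 were at 0.645, 0.378, 0.336, 0.119 and 0.0363 TPM. Klf14, Klf15, Klf17, Sp5, Sp8 and Sp9 had 0 fragments in all libraries, which allows up to 3 fragments, or 0.0777 to 0.0322 CPM from the shallowest to the deepest library. Of the 6 relatives tested, edgeR called 0 variable after adjustment and 0 at an unadjusted p under 0.05, against 58 and 661 of all 12396 genes.

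Genes around Klf2 were unevenly expressed. Foxo1 and Foxo3, which drive Klf2 transcription in resting T cells, had 65.3 ± 2.60 and 41.6 ± 1.80 TPM. Among the homing genes Ccr7 had 583 ± 41.0 TPM and the integrin gene Itgb7 80.2 ± 6.43. S1pr1, a well-known Klf2 target, through which T cells leave lymphoid tissue, had 11.3, 13.4, 16.8 and 12.2 TPM (13.4 ± 2.39). Cd69, an early activation gene whose product removes the S1pr1 receptor from the surface, had 47.5 ± 2.28 TPM. Foxo3, S1pr1 and Cd69, and Sap30 and Foxp3 further on, were singled out after their values were seen. Genes of the kinase route that induces Klf2 and Klf4 were present: 6 of 7 reached 10 TPM, led by Map3k3 at 89.5 ± 4.25, Mef2d at 62.0 ± 3.04 and Map2k5, which encodes the kinase that activates ERK5, at 40.3 ± 2.07, whereas Mef2c was at 0.0123 ± 0.0166. All 9 homing circuit genes and 6 of the kinase route genes were tested, and edgeR called 0 of them variable, with or without adjustment. Over all 12396 genes it called 58 with adjustment and 661 without.

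The partners that the 3 classes recruit were expressed, with 1 exception. The CtBP gene Ctbp1 had 209 ± 10.96 TPM and its relative Ctbp2 0.0850 ± 0.0232. All 7 genes of the SIN3 complex reached 10 TPM, from the histone-binding genes Rbbp7 (551 ± 46.9) and Rbbp4 (213 ± 17.3) and the deacetylase gene Hdac1 (184 ± 12.4) to Sin3b (48.6 ± 2.71). Of the acetyltransferase genes Kat2a had 122 ± 4.78 TPM, Ep300 29.1 ± 2.49, Crebbp 27.5 ± 3.66 and Kat2b 12.5 ± 1.29. Ubiquitin ligases reported to act on Kruppel-like factors lay close together, with Itch at 29.6 ± 2.86, Smurf1 at 24.4 ± 2.13, Wwp1 at 20.3 ± 2.61 and Fbxw7 at 18.0 ± 1.19. None of the 16 tested genes in these lists passed edgeR's adjusted threshold of 0.05, and 2 were below 0.05 before adjustment, as were 661 of all 12396 genes. The 2 genes were Crebbp with 31.2, 22.8, 29.4 and 26.5 TPM in replicates 1 to 4 (edgeR adjusted p = 0.0757) and the SIN3 subunit gene Sap30 with 42.3, 72.9, 51.8 and 57.4 TPM (edgeR adjusted p = 0.538).

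Reported targets of the family covered the full range of levels. Myc, which Klf2 and Klf4 are reported to restrain, had 497 ± 13.4 TPM, the cell cycle inhibitor Cdkn1a 424 ± 23.7 and Tgfb1 237 ± 14.2, while Ccl5 was the lowest of the 8. Of 6 tested, edgeR called 0 variable after adjustment. Foxp3, at 92.9 TPM in replicate 2 to 125 TPM in replicate 3, was the 1 gene below 0.05 before it (edgeR adjusted p = 0.595). Over all 12396 genes 661 were below 0.05 before adjustment.

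Genes whose levels over the 4 libraries moved most like Klf16, the most abundant member, and like Klf4, the member with the largest SD of log2 CPM, were Hist1h4d, Tsen54 and Snrpc for Klf16 (Pearson's r of 0.9997, 0.9994 and 0.9993) and Clec16a, Ndufaf5 and Rras for Klf4 (0.9999, 0.9998 and 0.9998). With 4 libraries such values are easily reached: 25 of 7867 candidate genes had an r over 0.99 with Klf16 and 22 of 7868 with Klf4. Reads of the members could be mixed with few other features. The annotated features that overlap a member on the same strand had at most 19 fragments in any library, and those on the opposite strand at most 22, where the authors' counting was set to use strand.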

How the data were processed

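RNA-seq libraries of mouse regulatory T cells (1 group, 4 biological replicates, numbered by the labels) were analysed from 4 deposited tables of raw counts. Per the file headers, the authors counted fragments with both ends mapped over exons grouped by gene, with featureCounts v1.4.6-p4, strand setting 2 and GENCODE mouse release 13; the labels name mm10. The labels call the assay total RNA-seq and link a library protocol for polyA+ RNA. The aligner version and the handling of reads before alignment are not given in the sources used here. Depth was 38590127 to 93035969 fragments per library. Other values were computed here: CPM, and TPM from the deposited exon union lengths. The longer the exon union beyond the transcript in use, the lower the TPM.

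Gene names came from GENCODE release 21 (50376 of 50600 identifiers matched). In R 4.3.3, edgeR 4.0.16 tested the spread between libraries. After filterByExpr and TMM scaling, a quasi-likelihood model with an intercept alone and a robust prior was fitted, and a gene's dispersion over the prior was read in the upper tail of the F distribution, with the prior degrees of freedom of genes that are not outliers and Benjamini-Hochberg adjustment at 0.05. The test was checked on simulated data. Class shares, the count of members at 10 TPM and the pair ratios under other lengths were added after seeing the data. DESeq2 1.42.0 dispersion outliers were an alternative. Pearson's r used log2(CPM + 0.1). Named genes are the 10 members, further KLF and SP genes with a mean of at least 1 TPM, the 3 highest and the lowest gene of each list, and any that varied; 1 gene that this rule names is not reported here. The members and lists were chosen with earlier results of these data known. Chi-square over degrees of freedom between pairs of libraries was 12.2 to 137, so none was a duplicate. Sequences came from release 21 transcripts, choosing the longest coding sequence of each gene.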

Additional observations from a re-analysis of the deposited data

Results flagged for a closer look

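Of 52 genes reported here with a mean of at least 1 TPM or belonging to the 10 members, 2 had a library far from the others by Dixon's test for 4 values, where chance flags about 1 in 20 groups. Klf4 had 0.940 TPM in replicate 4, from 79 fragments, against 0.374 to 0.395 in the other libraries, a gap of 0.963 of the range; without replicate 4 its mean was 0.383 TPM. Map3k2, a kinase gene of the ERK5 route, had 16.6 TPM in replicate 3 against 12.6 to 13.2, a gap of 0.850 of the range. Neither gene was called variable by edgeR over all genes (adjusted p = 0.985 and 0.974).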

How the results depend on the processing

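No paired analysis was possible because all 4 libraries belong to 1 group. The count of genes that varied between libraries was 58, against 36 without the robust prior, 110 without the filter on low counts (21459 genes tested) and 37 to 69 when each replicate was left out in turn; the cause of the first was not tested, and the others test other genes or fewer samples. Leaving out replicate 1 gave 37, of which 31 were among the 58. RLE scaling gave 59, protein-coding genes alone 40 and DESeq2 outliers 69. In all of these settings 0 of the 10 members passed. Their lowest adjusted p by edgeR was 0.511, for Klf16 without replicate 2, where its unadjusted p was 0.0108. The unadjusted p by edgeR was also under 0.05 for Klf16 without the filter on low counts (0.0329) and for Klf10 without replicate 1 (0.0387).

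Of 9 neighbouring pairs in the order of levels 6 differed beyond the spread, and 6 to 7 did under every alternative, with each replicate left out giving 6. Where an alternative changed the order, other pairs became neighbours, so a like count does not mean a like order. Without division by length the order was Klf13, Klf6, Klf16, Klf10, Klf3, Klf2, Klf7, Klf9, Klf11, Klf4, with Klf3 (27.5 CPM) above Klf2 (24.6 CPM). In that order Klf6 and Klf16, and Klf2 and Klf7, did not differ beyond the spread. All 40 means with a replicate left out stayed within 1 SD of the mean of 4. With 4 values this holds by arithmetic, so it says nothing about stability. The mean of Klf4 was 0.383 TPM without replicate 4, against 0.522 with all 4 libraries. With protein-coding genes alone in the total, levels were 1.055 to 1.067 times as high. Klf4, with 14 to 79 fragments per library, is the member that depth limits most, with a counting error of 11.3 to 26.7%.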
